A study of Mus musculus with 8 samples.

Results

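Genes of the cell cycle and of DNA replication were followed through sorted precursors of the mouse ureteric bud. The set held 49 of the 34837 gene names on the array. It comprised 12 genes of origin licensing and the replicative helicase, 6 of DNA synthesis and nucleotide supply, 10 cyclins and kinases of G1 and S phase, 3 inhibitors of cyclin-dependent kinases (CDK), 13 genes of mitosis and 5 transcription factors. A gene was taken through the probes that carry exactly its name, and of the 69 probes found the one with the highest mean level stood for its gene. All 49 genes were well above background on at least 1 of the 8 arrays, the filter that left 29358 genes for testing, and 45 were so on all 8. The exceptions were Cdkn1a (6 arrays), Ccne2 (5), Cdkn2c (5) and Cdk6 (3).

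Precursors of the ureteric bud were sorted by flow cytometry from ICR mouse embryos carrying a Hoxb7-GFP reporter, which marks the nephric (Wolffian) duct. Hoxb7-GFP cells gave 1 array at E8.75, 2 at E9.5 and 2 at E10.5 (a rostral and a caudal part of the duct at each of these stages), and 1 of the ureteric bud at E11.5. The design describes these cells as Flk1-negative, a selection against endothelium, which their sample names state from E9.5 on but not at E8.75, and no such gate is stated for Wt1-GFP cells. Wt1-GFP cells, described as intermediate mesoderm of the nephron lineage, came from ICR embryos at E9.5, with 1 rostral and 1 caudal array. The labels give no treatment for any group. Neither separate animals nor the number of pooled embryos is stated for any array. The p-values rest on how far the rostral minus caudal differences of the split groups disagree, not on replicate arrays. That spread may be technical.

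Before a cell copies its DNA, the origin recognition complex, Cdc6 and Cdt1 load the Mcm2 to Mcm7 helicase onto replication origins in G1, and the GINS complex later helps to switch it on. Cyclin D with Cdk4 or Cdk6, then cyclin E with Cdk2, free E2F transcription factors from the retinoblastoma protein, and E2F factors switch on replication genes. Cyclin B with Cdk1 drives entry into mitosis, and CDK inhibitors hold these kinases back. The tips of the growing ureteric bud are known as its most proliferative region, and Mycn is needed for normal kidney growth.

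A level here is the log2 of the processed signal minus that of the 75th percentile on the same array, so a level of 0 is as bright as that percentile, and a difference of 1 is a 2-fold difference in signal. Probes differ in how brightly they light up, so levels are set against each other only within a gene. The 75th percentile signal lay between 242.9 and 316.7, the share of probes well above background ran from 60.6% to 69.2%, and 0 spots were saturated. In these bulk samples, fewer cycling cells and less of a transcript per cell cannot be told apart. The second row of the slide held the Wt1-GFP, E10.5 caudal and E11.5 arrays, and the first row held the other 4, so at E9.5 the reporter and the slide row cannot be told apart by direct comparison.

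The sorts carried their defining markers, with exceptions. Pax2, a duct transcription factor, had levels of 4.20 to 5.69 on the Hoxb7-GFP arrays against 1.32 to 2.71 on the Wt1-GFP arrays. Wt1 itself had levels of -6.92 to -0.20 on the Hoxb7-GFP arrays against 4.08 and 4.01 on the Wt1-GFP arrays. Of 7 duct markers 6 were well above background at E8.75, where Wnt9b was not. The E8.75 array stood apart in 8 endothelial markers, with a summed signal of 35.1 times the 75th percentile against 4.07 to 5.86 on the other arrays, and in 6 visceral endoderm markers, at 26.5 against 1.22 to 4.76. The E9.5 rostral duct array stood apart in 6 neural markers, at 172 against 29.4 to 53.8 on the other arrays. It also led in 5 heart markers, at 20.6, followed by the Wt1-GFP rostral array, with 0.879 to 3.38 on the other 6. Erythroid markers (5 genes) ran from 0.657 on the E10.5 caudal array to 35.3 on the E9.5 caudal array.

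Promoter letters of 6 of these genes are shown because they carry the short motifs by which the field groups cell cycle promoters. RefSeq (GRCm38.p6) supplied windows from 250 bases before to 50 bases after the start for 37 of the 49 genes. Below are the 200 bases before the start, read 5′ to 3′ in the direction of the gene, with motif matches in capitals. The first 3 hold E2F motifs: Mcm6 at chr1:128359706-128359905 (minus strand), Cdc6 at chr11:98907951-98908150 (plus strand) and Mycn at chr12:12941837-12942036 (minus strand).
Mcm6: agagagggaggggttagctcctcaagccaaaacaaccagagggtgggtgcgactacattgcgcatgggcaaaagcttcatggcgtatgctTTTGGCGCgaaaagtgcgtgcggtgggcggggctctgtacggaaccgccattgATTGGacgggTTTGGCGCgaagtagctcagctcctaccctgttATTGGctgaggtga
Cdc6: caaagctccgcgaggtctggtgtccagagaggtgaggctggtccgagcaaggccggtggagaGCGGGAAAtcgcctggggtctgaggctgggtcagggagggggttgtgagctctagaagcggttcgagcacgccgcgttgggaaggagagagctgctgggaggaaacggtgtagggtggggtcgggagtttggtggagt
Mycn: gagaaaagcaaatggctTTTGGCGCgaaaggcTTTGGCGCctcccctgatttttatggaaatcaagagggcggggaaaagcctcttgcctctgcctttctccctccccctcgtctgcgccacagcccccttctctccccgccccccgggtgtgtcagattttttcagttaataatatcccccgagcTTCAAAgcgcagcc
The next 2 are mitotic genes with the CHR motif beside CCAAT boxes: Cdk1 at chr10:69352913-69353112 (minus strand) and Top2a at chr11:99024190-99024389 (minus strand).
Cdk1: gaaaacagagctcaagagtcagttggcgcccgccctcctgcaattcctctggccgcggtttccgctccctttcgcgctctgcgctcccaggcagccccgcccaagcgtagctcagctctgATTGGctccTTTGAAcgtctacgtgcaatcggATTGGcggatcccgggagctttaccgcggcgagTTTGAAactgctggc
Top2a: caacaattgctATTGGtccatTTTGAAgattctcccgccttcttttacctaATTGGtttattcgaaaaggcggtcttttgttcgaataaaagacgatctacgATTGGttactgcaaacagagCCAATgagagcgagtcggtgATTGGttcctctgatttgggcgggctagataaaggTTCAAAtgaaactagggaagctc
The last holds 4 E-boxes, the motif that Myc and Mycn are known to bind: Cdk4 at chr10:127063335-127063534 (plus strand).
Cdk4: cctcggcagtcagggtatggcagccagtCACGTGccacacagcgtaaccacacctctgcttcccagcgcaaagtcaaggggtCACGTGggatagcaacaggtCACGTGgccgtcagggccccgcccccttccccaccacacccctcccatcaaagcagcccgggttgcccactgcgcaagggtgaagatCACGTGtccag

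The 4 motifs were searched on both strands, and each was counted separately, overlaps included. The E2F motif (TTTCCCGC or TTTGGCGC) was in 6 of 9 windows of the licensing genes, in 3 of 5 windows of the transcription factors and in 0 of 11 windows of the mitosis genes, while 1.56% of all 32851 windows in the RefSeq table held it. The CHR motif (TTTGAA) was in 8 of 11 mitosis windows and in 1 of 9 licensing windows, against 17.9% of all windows. CCAAT was in 10 of 11 mitosis windows and 7 of 9 licensing windows, against 37.4% of all. The E-box (CACGTG) was in 4 of the 42 windows of the set, against 7.15% of all. These are matches of letters, and no binding was measured here.

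Across the 8 arrays most of these genes shared their lowest array. Of the 45 genes well above background on every array, 37 had their lowest level on the E10.5 rostral array. The highest level fell on the Wt1-GFP caudal array for 21, on the E8.75 array for 18, on the Wt1-GFP rostral array for 3 and on the E11.5 array for 3. The lowest and highest arrays were not counted over all genes, so these counts have no background share beside them. The median level of the 49 genes was 2.23 at E8.75, 1.57 and 1.98 at E9.5 (rostral and caudal), 1.13 and 1.82 at E10.5, 1.73 at E11.5, and 2.46 and 2.47 on the Wt1-GFP rostral and caudal arrays. The 45 genes spanned a median of 1.55 between their lowest and highest array, where the 19845 genes well above background on all arrays spanned 1.16.

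**Figure D1:**
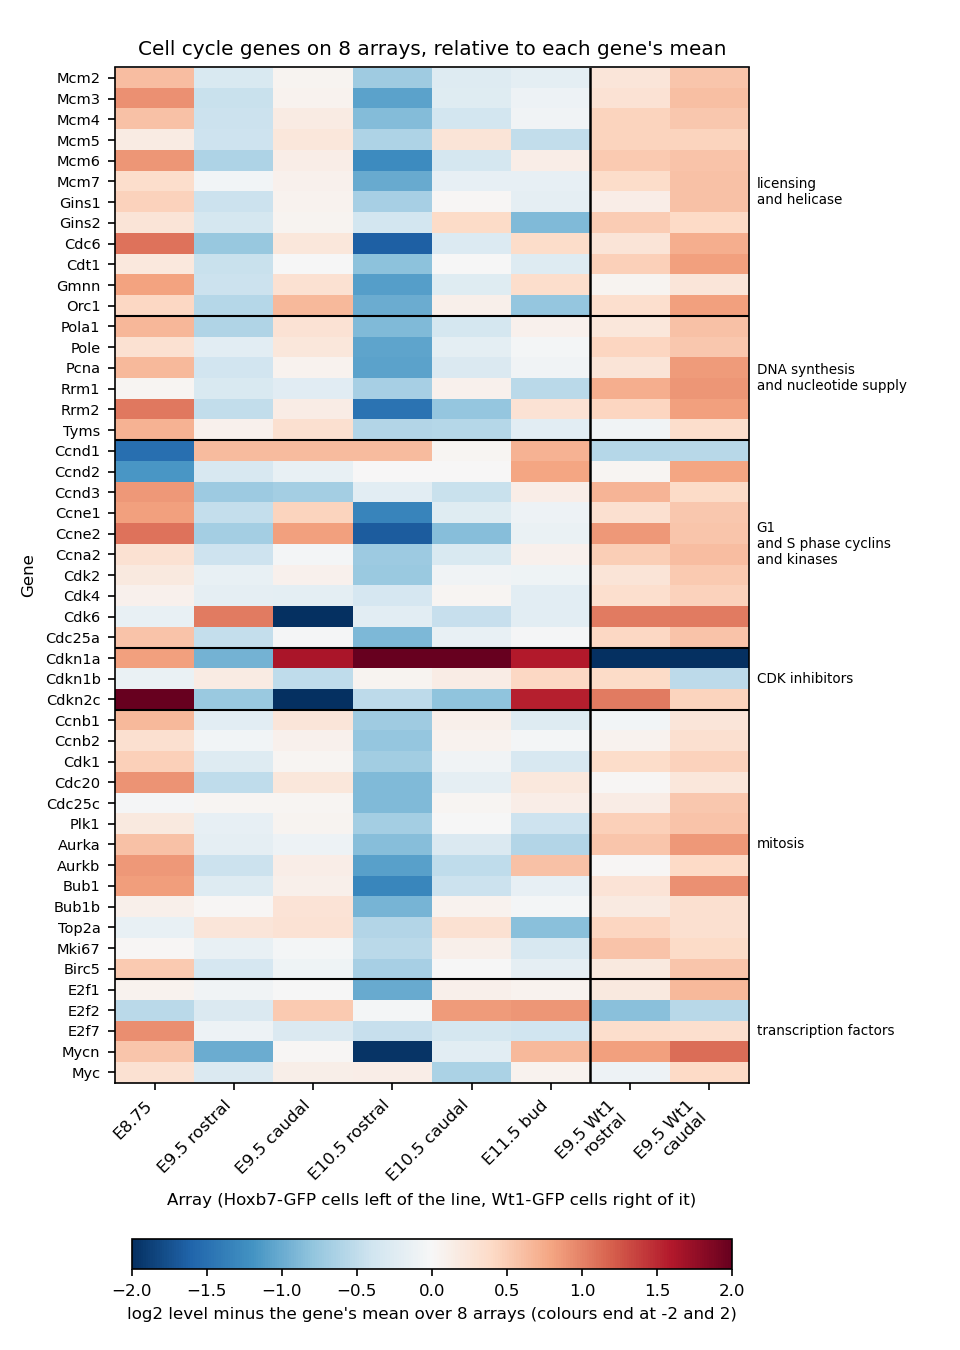
Level of each of the 49 genes on the 8 arrays, as the log2 level minus the mean of that gene, grouped by role (red higher, blue lower, colours ending at -2 and 2). The E10.5 rostral column is the bluest for most genes and holds the lowest level of 37 of the 45 genes measured on all arrays, while Ccnd1, E2f2 and Cdkn1a run differently from the rest.

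The closeness of a gene to the course of the set is described by Pearson's r with the median of the other genes over the 8 arrays. Only the 45 genes well above background on every array entered, and the gene itself was left out of the median. The arrays share depth and scaling. Ccna2, the cyclin of S and G2 phase, had r = 0.98, Pole and Cdk2 0.95, and Mycn 0.93. For Pole the course depended on the probe. The chosen probe differed by -0.31, -0.64 and 0.60 between successive stages. A dimmer one, well above background on all 8 arrays, differed by 0.31, 0.14 and -1.76. The remaining one, well above background on 5, differed by -1.34, -0.97 and 2.09. Ccnd1 ran opposite to the set at r = -0.67, and E2f2 (-0.32), Cdkn1b (-0.28) and Ccnd2 (0.15) did not follow it. The plot of role medians shows the same dip on the E10.5 rostral array for licensing, DNA synthesis, G1 and S phase, mitosis and transcription factor genes.

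**Figure D2:**
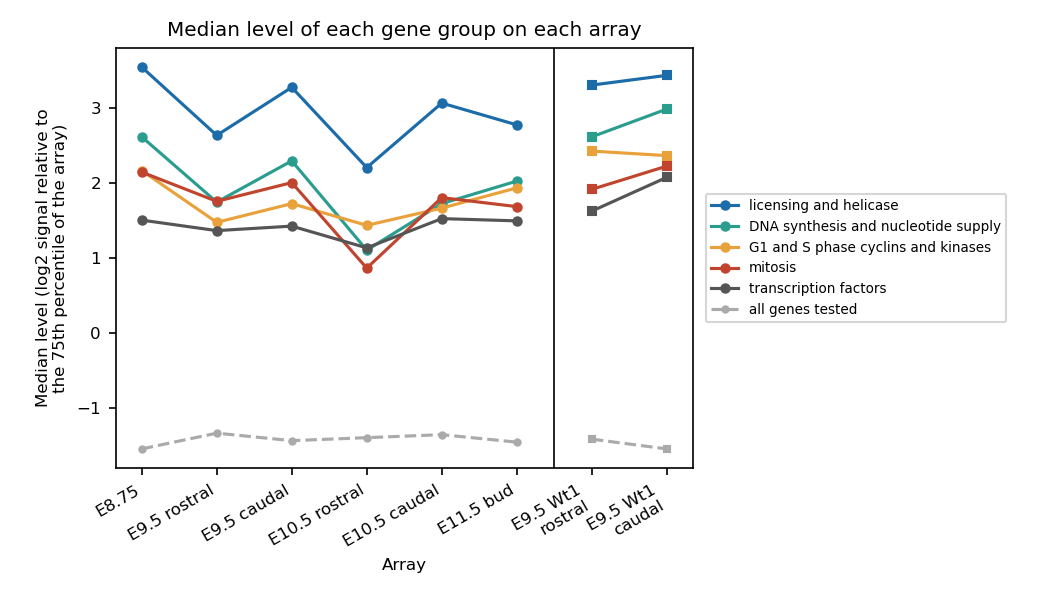
Median log2 level of the genes of each role on each array, with Hoxb7-GFP cells left of the line in stage order and Wt1-GFP cells right of it. The 5 roles with over 3 genes all reach their lowest median on the E10.5 rostral array, and the median of all 29358 genes tested (dashed grey) is nearly level.

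At E9.5, Hoxb7-GFP duct cells had lower levels than Wt1-GFP mesoderm for 45 of the 49 genes, with a median log2 difference of -0.55. Licensing genes were lower in 12 of 12 cases, mitosis genes in 13 of 13, and DNA synthesis genes in 5 of 6. Ccnd1 (cyclin D1) and E2f2 went the other way, higher in the duct, as did 1 of 3 probes of Cdkn1a (p21). Over all genes tested, 53.7% were lower and the median was -0.05. Among the 5351 genes as bright as the middle range of the set (mean levels of 0.84 to 3.67), 64.7% were lower and the median was -0.18.

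No gene passed an adjusted p of 0.05 in the limma fit of this comparison, 0% of 29358 genes and 0 of 49 members, where the lowest adjusted p was 0.17 over all genes. At an unadjusted p under 0.05, 10 members were lower and 3 higher, against 6.89% and 6.42% of all genes. Both duct arrays lay below both Wt1-GFP arrays for 32 members (27.9% of all genes), and above both for 3 (19.9%). Among genes of like brightness these shares were 39.5% and 15.3%. With a prior variance that follows brightness, limma called 342 genes lower (1.16%) and 295 higher (1%), among them the members Ccnd3 and Ccnd1.

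**Figure D3:**
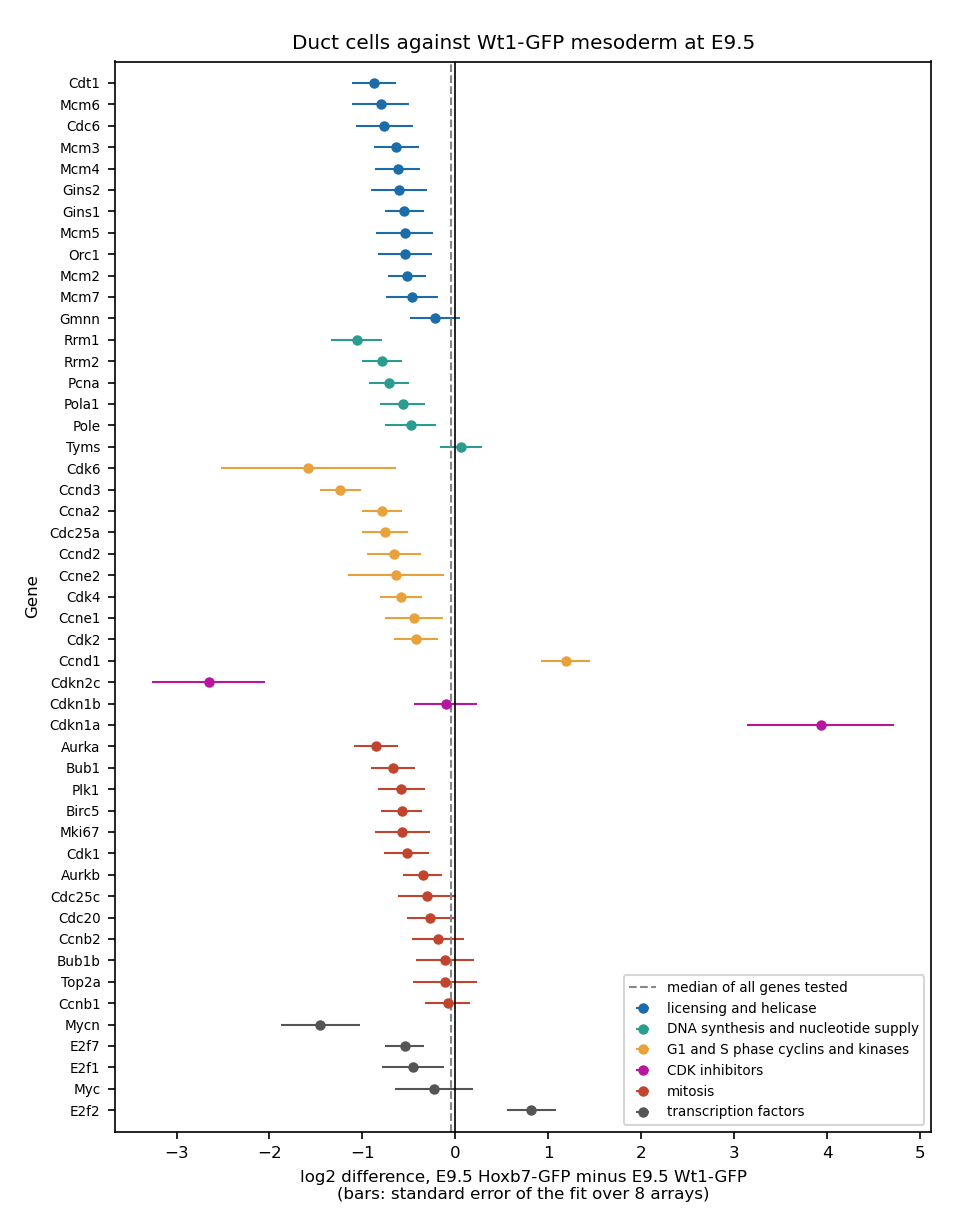
Fitted log2 difference of each gene, E9.5 Hoxb7-GFP minus E9.5 Wt1-GFP, by role, with the standard error of the fit as bars. Of the 49 points 45 lie left of 0, and Cdkn1a, Ccnd1 and E2f2 lie to the right by 3.93, 1.19 and 0.82.

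Among the licensing genes, Mcm2 to Mcm7 encode the 6 subunits of the helicase. Mcm6 had levels of 5.91 and 6.66 on the rostral and caudal duct arrays against 7.06 and 7.11 on the Wt1-GFP arrays, a log2 difference of -0.80 (SE 0.31, limma adjusted p = 0.393). Mcm3 had 4.62 and 5.13 in the duct against 5.35 and 5.67 in Wt1-GFP cells, a difference of -0.64 (SE 0.24). Mcm4 had 4.84 and 5.43 against 5.71 and 5.80, a difference of -0.62 (SE 0.24). In none of these 3 did the groups overlap.

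Mcm5 had 2.99 and 3.63 in the duct against 3.85 and 3.86 in Wt1-GFP cells, a difference of -0.55 (SE 0.30). Mcm2 had 0.78 and 1.15 against 1.33 and 1.64, a difference of -0.52 (SE 0.20). Mcm7 had 6.16 and 6.29 against 6.58 and 6.80, a difference of -0.46 (SE 0.28). The groups did not overlap for any helicase subunit, and the 6 limma adjusted p-values ran from 0.39 to 0.508. Over all genes 27.9% were lower without overlap. Cdt1, the loading factor, had the largest difference of the role, with 1.54 and 1.98 in the duct against 2.46 and 2.81 in Wt1-GFP cells (difference -0.87, SE 0.24, limma adjusted p = 0.333). Gmnn, whose product geminin blocks Cdt1, had the smallest, at -0.22.

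Of the DNA synthesis genes, Rrm1, the large subunit of ribonucleotide reductase, had 3.37 and 3.45 in the duct against 4.39 and 4.55 in Wt1-GFP cells. Its difference was -1.06 (SE 0.27, limma adjusted p = 0.326), and the groups stood clearly apart. Rrm2, the small subunit of the same enzyme, differed by -0.79, Pcna, the sliding clamp of the polymerases, by -0.72, and Pola1 and Pole, polymerase subunits, by -0.57 and -0.48. Tyms, thymidylate synthase, differed by 0.06 (SE 0.23) with overlapping groups, and its sign turned under 3 alternatives.

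The D-type cyclins, which link growth signals to the cell cycle, split in this comparison. Ccnd1 (probe at mm9 chr7:152116202-152116261) had 4.53 and 4.54 in the duct against 3.34 and 3.35 in Wt1-GFP cells, a 2.28-fold higher signal (difference 1.19, SE 0.26, limma adjusted p = 0.301, or 0.048 with the brightness-dependent prior). Ccnd3 (probe at mm9 chr17:47736579-47736638) had 1.36 and 1.41 in the duct against 2.77 and 2.47 in Wt1-GFP cells, a 2.36-fold lower signal, and its other probe differed by -1.31 (difference -1.24, SE 0.22, adjusted p = 0.253, or 0.0394 with that prior). Ccnd2 had 2.92 and 3.09 against 3.28 and 4.04, a difference of -0.66 (SE 0.29, adjusted p = 0.417). For none of the 3 did the groups overlap, with Ccnd1 higher and Ccnd2 and Ccnd3 lower in the duct. Over all genes 19.9% were higher and 27.9% lower without overlap.

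Among the other G1 and S phase genes, Ccna2 (-0.79), Cdc25a, a phosphatase that activates Cdk2 (-0.75), Cdk4 (-0.59), Ccne1 (-0.45) and Cdk2 (-0.42) were lower in the duct. Cdk4 had 3 probes, with differences of -0.59, -0.40 and -0.79. A second probe of Ccne1, nearly as bright and well above background on all 8 arrays, differed by -1.58, so the size of the Ccne1 difference depended on the probe. Cdk6 was well above background on the rostral duct array alone among the 2 duct arrays, with levels of -3.65 and -6.81 against -3.66 and -3.65 in Wt1-GFP cells. The groups overlapped for Cdk6 (difference -1.58, SE 0.94), with the caudal duct array alone clearly below the rest. Ccne2, near background on 3 arrays, differed by -0.64 with overlapping groups.

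The CDK inhibitors went in different directions. Cdkn1a, a target of p53 that blocks G1 kinases, had -2.66 and -0.08 in the duct against -5.39 and -5.21 in Wt1-GFP cells, where this probe was not well above background on either array. Its signal was at least 6.75-fold higher in the duct (fitted difference 3.93, SE 0.79, limma adjusted p = 0.278). A dimmer probe of Cdkn1a, well above background on all 8 arrays, differed by 0.01, and the remaining probe, well above background on 5, by -0.02, so the probes disagree and the direction of the gene is not established. Cdkn2c (p18), which binds Cdk4 and Cdk6, had -4.71 and -7.05 in the duct, not well above background on either array, against -2.93 and -3.53 in Wt1-GFP cells. Its signal was at least 2.64-fold lower (difference -2.65, SE 0.61, adjusted p = 0.304). Cdkn1b (p27) had 0.41 and -0.25 against 0.64 and -0.27, a difference of -0.10 (SE 0.34) with overlapping groups, while its dimmer probe differed by 0.44.

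The mitosis genes were lower by a median of 0.35 on the log2 scale, less than the licensing genes with a median difference of -0.58, and this contrast between roles was not tested. Aurka, a kinase of the spindle poles, had 3.65 and 3.74 in the duct against 4.39 and 4.70 in Wt1-GFP cells (difference -0.85, SE 0.23, limma adjusted p = 0.336). Mki67, the proliferation marker Ki-67, had 4.55 and 4.66 against 5.27 and 5.08, a difference of -0.57. Ccnb1 (cyclin B1) had 3.40 and 3.85 against 3.56 and 3.86, a difference of -0.08 (SE 0.24), and its groups overlapped. Its dimmer probes, well above background on all 8 arrays, differed by -0.23 and -0.55. Both duct arrays lay below both Wt1-GFP arrays for 8 of the 13 mitosis genes, against 27.9% of all genes and 39.5% of those of like brightness.

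Of the transcription factors, Mycn, which promotes growth and division of progenitor cells, had the largest difference among the members whose chosen probe was well above background on every array. It had 4.54 and 5.56 in the duct against 6.36 and 6.66 in Wt1-GFP cells, a 2.74-fold lower signal (difference -1.45, SE 0.42, limma adjusted p = 0.34). Its relative Myc had 0.71 and 1.11 against 0.89 and 1.40, a difference of -0.23 (SE 0.42), with overlapping groups. E2f1 (-0.46) and E2f7, a repressor of the E2F family (-0.54), were lower in the duct. E2f2 had 0.03 and 0.85 in the duct against -0.52 and -0.23 in Wt1-GFP cells, a difference of 0.82 (SE 0.26, adjusted p = 0.359).

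Other genes of the pathway ran the same way in number. Of 36 further replication genes 31 were lower in the duct (median -0.45), of 32 further mitosis genes 30 (median -0.41), and of 23 further G1, inhibitor and checkpoint genes 16 (median -0.32), with 0 past the limma threshold. Cdkn1c (p57), the inhibitor linked to cell cycle exit, had 1.60 and 0.45 in the duct against 3.35 and 3.52 in Wt1-GFP cells (difference -2.41, SE 0.40, adjusted p = 0.245). Gas1, a membrane protein known for growth arrest, had 3.06 and 2.13 against 4.83 and 4.92 (difference -2.28, SE 0.34, adjusted p = 0.231). The groups did not overlap for either gene, and both passed with the brightness-dependent prior (adjusted p = 0.0376 for Cdkn1c and 0.0307 for Gas1). E2f8, an E2F repressor, differed by -1.09. On the other side stood Rbl2 (p130, 1.84, not well above background in Wt1-GFP cells and so only a bound), Cdc25b, a phosphatase that activates Cdk1 (1.42), and Chek2, a checkpoint kinase (1.07).

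With the slide row as a block, which only the E10.5 pair can estimate, 33 members were lower and the median reporter difference was -0.24 instead of -0.55. Within the second row, the E10.5 caudal duct array was lower than the Wt1-GFP caudal array for 45 of 49 genes (median -0.75). The E11.5 array was lower than the Wt1-GFP caudal array for 42 (median -0.60) and lower than the Wt1-GFP rostral array for 38 (median -0.39), at another stage in each case. Markers of other cells moved with the reporter comparison, with 6 of 8 endothelial genes higher in the duct (median difference 2.31), 5 of 5 erythroid genes (1.52) and 5 of 6 neural genes (2.62), and the part of the endothelial and erythroid genes was not tested. The summed endothelial signals were 5.38 and 5.86 in the duct against 5.14 and 5.34 in Wt1-GFP cells. Without the E9.5 rostral duct array, which carried the neural and heart markers, 44 members were lower with a median of -0.58.

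From E8.75 to E9.5, Hoxb7-GFP cells had lower levels for 43 of the 49 genes at the later stage, with a median log2 difference of -0.53, and Ccnd1 and Ccnd2 were higher. Licensing genes were lower at E9.5 in 12 of 12 cases (median -0.68), DNA synthesis genes in 6 of 6 (-0.65) and mitosis genes in 10 of 13 (-0.58). Over all genes tested the median was -0.02 and 50.9% were lower, and among genes of like brightness 62.8% were lower with a median of -0.21. In the limma fit 0 members and 0% of all genes passed, with a lowest adjusted p of 0.19 over all genes. At an unadjusted p under 0.05, 12 members were lower (8.52% of all genes) and 1 was higher (7.08%). Both E9.5 arrays lay below the E8.75 array for 38 members (39.9% of all genes) and above it for 5 (36.1%). Among genes of like brightness these shares were 53.3% and 29.3%. With the brightness-dependent prior limma called 191 genes lower (0.651%), among them Ccnd3 and Rrm2, and 184 higher (0.627%), among them Ccnd1. Markers of other cells moved with this comparison. Endothelial genes were lower at E9.5 in 8 of 8 cases (median -2.93) and visceral endoderm genes in 6 of 6 (-4.72). Neural genes were higher at E9.5 in 6 of 6 cases (2.01) and erythroid genes in 4 of 5 (2.35), with summed erythroid signals of 15 and 35.3 at E9.5 against 3.07 at E8.75. Their part in the difference of the set was not tested.

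Ccnd1 had 4.53 and 4.54 at E9.5 against 2.39 at E8.75, a 4.44-fold higher signal (difference 2.15, SE 0.32, limma adjusted p = 0.214, or 0.0473 with the brightness-dependent prior). Ccnd2 had 2.92 and 3.09 at E9.5 against 2.08 at E8.75, a difference of 0.92 (SE 0.35, adjusted p = 0.34). Ccnd3 had 1.36 and 1.41 at E9.5 against 2.96 at E8.75, a 2.99-fold lower signal (difference -1.58, SE 0.27, adjusted p = 0.226, or 0.0486 with that prior). The 3 D-type cyclins thus differed in direction. Each had both E9.5 arrays on 1 side of the single E8.75 array, as had 39.9% of all genes below it and 36.1% above it.

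Cdkn2c had -4.71 and -7.05 at E9.5, not well above background, against -1.86 at E8.75, its brightest array, and was at least 6.81-fold lower (difference -4.03, SE 0.74, limma adjusted p = 0.236). Cdc6, the loading factor, had 1.51 and 2.49 at E9.5 against 3.35 at E8.75 (difference -1.35, SE 0.37). Rrm2 had 3.24 and 3.87 at E9.5 against 4.78 at E8.75 (difference -1.23, SE 0.26, limma adjusted p = 0.245, or 0.0493 with the brightness-dependent prior). E2f7 had 3.11 and 2.92 against 4.14 (difference -1.13, SE 0.26). In all 4 genes both E9.5 arrays lay below E8.75, as they did for 39.9% of all genes.

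Of the helicase subunits, Mcm6 differed by -1.12 (SE 0.38) and Mcm3 by -1.11 (SE 0.30), and Mcm2 (-0.75), Mcm4 (-0.72), Mcm7 (-0.33) and Mcm5 (-0.27) by less, with Mcm5 overlapping. Mycn had 4.54 and 5.56 at E9.5 against 6.09 at E8.75 (difference -1.03, SE 0.52), and Myc differed by -0.39 (SE 0.51). Cdkn1a (-0.46, SE 0.97) and Cdkn1b (-0.04, SE 0.41) had groups that overlapped. E2f2 (0.65) and Top2a, the topoisomerase that untangles DNA in mitosis (0.41), were higher at E9.5 on both arrays, and Bub1b and Cdc25c differed by 0.05 each.

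**Figure D4:**
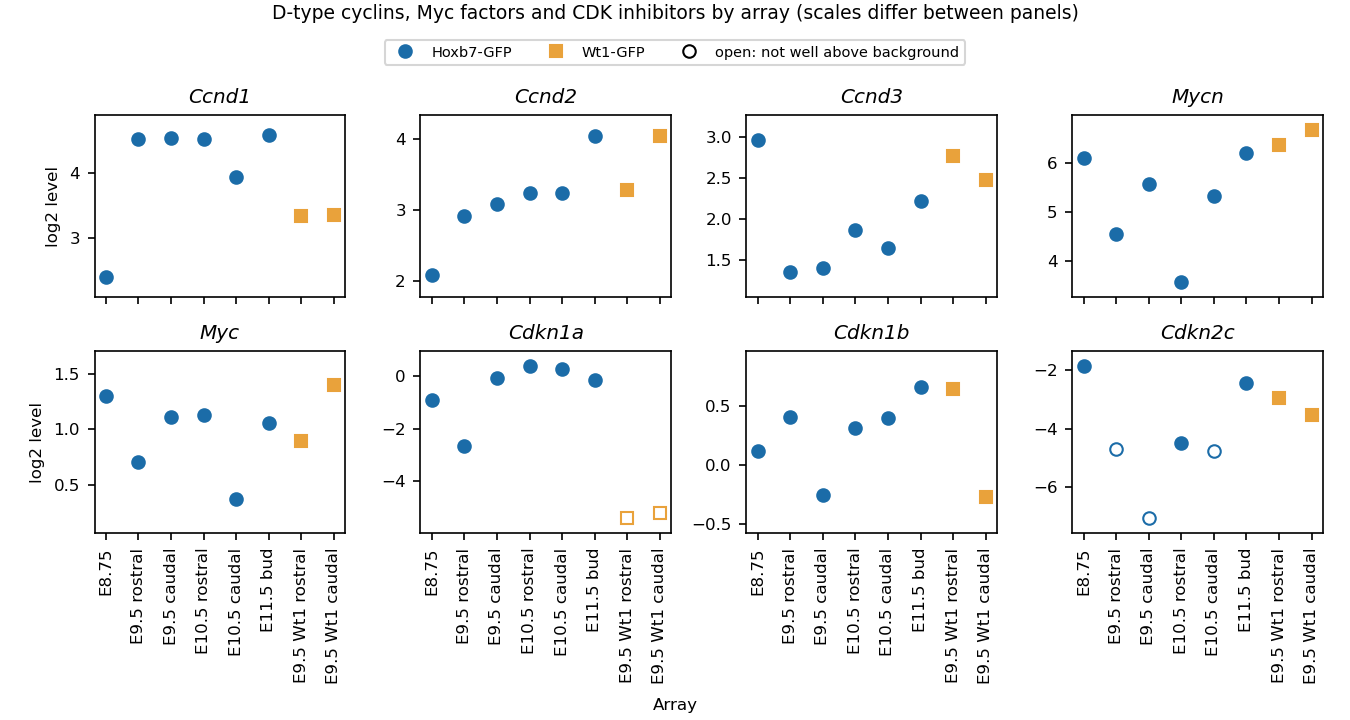
Log2 level of 8 genes on every array, Hoxb7-GFP cells as circles in stage order and Wt1-GFP cells as squares, with open symbols where the probe was not well above background. Ccnd1 is lowest at E8.75 (2.39), Ccnd2 is highest at E11.5 and in Wt1-GFP caudal cells (4.04 on both), and Mycn is lowest on the E10.5 rostral array (3.57).

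From E9.5 to E10.5, 40 of the 49 genes were lower at E10.5, with a median log2 difference of -0.36, and this rested largely on the E10.5 rostral array. Mitosis genes were lower in 13 of 13 cases (median -0.38), licensing genes in 11 of 12 (-0.47) and DNA synthesis genes in 6 of 6 (-0.58), while Cdkn1a and Cdkn1b had differences above 0 and Cdkn2c was too dim for a direction. Over all genes the median was 0 and 49.9% were lower, and among genes of like brightness 53.3% were lower with a median of -0.02. Without the E10.5 rostral array 33 members were lower and the median was -0.10. Compared part by part, the rostral arrays gave a median of -0.45 with 43 lower, both in the first slide row, and the caudal arrays -0.15 with 33 lower. In the limma fit 0 members and 0% of all genes passed (lowest adjusted p 0.52), and 4 members had an unadjusted p under 0.05 and were lower (3.62% of all genes). Both E10.5 arrays lay below both E9.5 arrays for 9 members (16.6% of all genes) and above them for 3 (18.1%). Among genes of like brightness these shares were 17.2% and 17%. The summed erythroid signal was 6.81 and 0.657 on the rostral and caudal arrays at E10.5 against 15 and 35.3 at E9.5. Endothelial genes were lower at E10.5 in 8 of 8 cases (median -0.97), heart genes in 4 of 5 (-2.55) and neural genes in 5 of 6 (-0.77), and the part of these markers in the difference was not tested.

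Rrm2 had 2.25 and 2.96 on the rostral and caudal arrays at E10.5 against 3.24 and 3.87 at E9.5, a difference of -0.95 (SE 0.22, limma adjusted p = 0.6). Bub1, a spindle checkpoint kinase, had 0.00 and 0.88 at E10.5 against 1.05 and 1.41 at E9.5 (difference -0.79, SE 0.24). Tyms had -0.86 and -0.85 against -0.19 and 0.04 (difference -0.78, SE 0.23). In these 3 genes both E10.5 arrays lay below both E9.5 arrays, as they did for 16.6% of all genes. Ccne2 was not well above background on either E10.5 array and was at least 1.2-fold lower, while Ccne1 (-0.77, SE 0.31), the other E-type cyclin, and Cdc6 (-0.69, SE 0.31) overlapped.

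Mycn had 3.57 and 5.32 at E10.5 against 4.54 and 5.56 at E9.5, a difference of -0.61 (SE 0.42) with overlap, and Myc differed by -0.16 (SE 0.42). The helicase subunits differed by -0.60 (Mcm7), -0.55 (Mcm6), -0.48 (Mcm4), -0.46 (Mcm3), -0.36 (Mcm2) and -0.08 (Mcm5), and of these Mcm7 alone did not overlap. Cdkn1a had 0.38 and 0.28 at E10.5 against -2.66 and -0.08 at E9.5 (difference 1.70, SE 0.79, limma adjusted p = 0.731). Its dimmer probes differed by 0.68 and -0.05, so the size depended on the probe. Cdkn2c was well above background on 1 of the 2 E10.5 arrays and on neither at E9.5, so no fold is given, and Cdkn1b differed by 0.28 (SE 0.34). Ccnd3 had 1.87 and 1.65 at E10.5 against 1.36 and 1.41 at E9.5 (difference 0.38, SE 0.22), Ccnd2 differed by 0.24 and E2f2 by 0.29. Ccnd1 had 4.53 and 3.95 at E10.5 against 4.53 and 4.54 at E9.5 (difference -0.30, SE 0.26).

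In the ureteric bud at E11.5, 39 of the 49 genes were higher than in E10.5 duct cells, with a median log2 difference of 0.39, and again the E10.5 rostral array set the size. Against that array alone 45 genes were higher (median 0.73), and against the E10.5 caudal array, which shared its slide row with E11.5, 29 were higher (median 0.12). G1 and S phase genes were higher in 9 of 10 cases (median 0.48), DNA synthesis genes in 5 of 6 (0.61), transcription factors in 5 of 5 (0.47), licensing genes in 9 of 12 (0.36) and mitosis genes in 9 of 13 (0.17). Over all genes 48.7% were higher and the median was -0.02, and among genes of like brightness 56.7% were higher with a median of 0.09. In the limma fit 0 members and 0% of all genes passed (lowest adjusted p 0.24), and 6 members had an unadjusted p under 0.05 and were higher (7.2% of all genes). The E11.5 array lay above both E10.5 arrays for 28 members (37% of all genes) and below both for 3 (37.9%). Among genes of like brightness these shares were 46.2% and 34.5%. Neural genes were lower at E11.5 in 6 of 6 cases (median -1.81), visceral endoderm genes in 5 of 6 (-0.18) and surface ectoderm genes in 3 of 4 (-0.43), and erythroid genes were higher in 4 of 5 (0.71), and their part was not tested. With the single E11.5 array, its spread was taken from the other groups. Without the E10.5 caudal array the median was 0.64, and without the rostral one it was 0.28 with 32 genes higher.

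Mycn had 6.19 at E11.5 against 3.57 and 5.32 at E10.5, a 3.34-fold higher signal (difference 1.74, SE 0.52, limma adjusted p = 0.374). Rrm2 had 4.02 at E11.5 against 2.25 and 2.96 (difference 1.41, SE 0.26, adjusted p = 0.303). Aurkb, the kinase of the chromosomal passenger complex, had -2.38 against -4.05 and -3.47 (difference 1.38, SE 0.25, adjusted p = 0.296). Cdc6 had 2.64 against 0.63 and 1.99 (difference 1.33, SE 0.37). In these 4 genes the E11.5 array lay above both E10.5 arrays, as it did for 37% of all genes. Cdkn2c had -2.42 at E11.5 against -4.50 and -4.78, well above background on the rostral array alone at E10.5, a signal at least 3.49-fold higher (difference 2.22, SE 0.74).

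Ccnd2 had 4.04 at E11.5 against 3.25 on both E10.5 arrays, a difference of 0.79 (SE 0.35, limma adjusted p = 0.448), the highest Ccnd2 level among the Hoxb7-GFP arrays. Ccnd3 (0.46), Ccnd1 (0.37), Cdkn1b (0.30) and Myc (0.31) were higher by less than 2 standard errors. Of the helicase subunits Mcm6 differed by 0.92 (SE 0.38), Mcm3 by 0.55, Mcm4 by 0.54, Mcm7 by 0.43 and Mcm2 by 0.30, and Mcm5 by -0.32. On the lower side, Gins2, a subunit of the GINS complex, had 2.61 at E11.5 against 3.13 and 3.87 at E10.5 (difference -0.89, SE 0.36, adjusted p = 0.433). Top2a had 0.44 against 0.68 and 1.58 (difference -0.69, SE 0.42). Cdkn1a (-0.46, SE 0.97), Orc1 (-0.32, SE 0.35) and Rrm1 (-0.25, SE 0.34) were lower within their errors. The dimmer probes of Cdkn1a differed by -0.17 and 0.66. Gins2, Top2a and Cdkn1a were the 3 members whose E11.5 level lay below both E10.5 arrays.

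A line over embryonic day through the 6 Hoxb7-GFP arrays had a lower slope than 0 for 42 of the 49 genes, with a median of -0.21 log2 units per day, against -0.02 and 53.3% over all genes. Among genes of like brightness 58.7% sloped down, with a median of -0.04. The E8.75 array carried much of the slope of the set, since without that array 31 genes sloped down and the median was -0.029. Without the E11.5 array the median was -0.45. With the slide row as a block 44 genes sloped down and the median was -0.40, against -0.07 over all genes. Endothelial markers sloped down in 8 of 8 cases (median -1.16), visceral endoderm markers in 6 of 6 (-1.14) and erythroid markers in 5 of 5 (-0.53), and their part was not tested. In the limma fit 0 members and 0% of all genes passed (lowest adjusted p 0.1). At an unadjusted p under 0.05, 9 members sloped down (7.45% of all genes) and 3 up (8.52%). With the brightness-dependent prior 379 genes rose (1.29%), among them the members Ccnd2 and Ccnd1, and 270 fell (0.92%), with no member among them.

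Ccnd2 was the 1 member whose levels kept an order through all stages, as 1.5% of all genes did upward, from 2.08 at E8.75 through 2.92 and 3.09 at E9.5 and 3.25 on both arrays at E10.5 to 4.04 at E11.5. Its slope was 0.61 per day (SE 0.13, limma adjusted p = 0.187, or 0.0495 with the brightness-dependent prior). Ccnd1 sloped by 0.54 (SE 0.12, adjusted p = 0.196, or 0.0475 with that prior), and by -0.01 without the E8.75 array. E2f2 (0.46, SE 0.12), Cdkn1a (0.58, SE 0.36) and Cdkn1b (0.22, SE 0.15) also sloped up. Among those sloping down were Ccne2 (-0.59), Orc1, the largest subunit of the origin recognition complex (-0.44), Bub1 (-0.42), Aurka (-0.41) and Tyms (-0.41), and the helicase subunits from -0.36 for Mcm3 to -0.21 for Mcm5. Mycn (-0.05, SE 0.19), Myc (-0.09, SE 0.19), Ccnd3 (-0.10, SE 0.10) and Cdkn2c (0.21, SE 0.28) had slopes within their errors. Cdkn2c was not well above background on either E9.5 duct array. Of the further pathway genes, Btg2, an antiproliferative gene (1.13), Cdc25b (0.97) and Rb1, the retinoblastoma gene (0.78), had the steepest upward slopes, and Mybl2 (-0.74), Mad2l1, a spindle checkpoint gene (-0.61), and Cenpf, a kinetochore gene (-0.54), the steepest downward ones, with 0 past the limma threshold.

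Rostral arrays had lower levels than caudal arrays for 43 of the 49 genes, with a median log2 difference of -0.44 over the 3 split groups. Licensing genes were lower rostrally in 12 of 12 cases (median -0.54), DNA synthesis genes in 6 of 6 (-0.53) and mitosis genes in 13 of 13 (-0.42). For 35 members the rostral array was the lower one in all 3 pairs (15.2% of all genes), and for 1, Cdkn2c, the higher one in all 3 (15.9%). Among genes of like brightness these shares were 28.7% and 11.4%. Cdkn2c was not well above background on either E9.5 duct array or on the E10.5 caudal array, and its signal was at least 1.05-fold higher rostrally. Over all genes the median was 0.01 with 48.4% lower, and among genes of like brightness 62.8% were lower with a median of -0.09. In the limma fit 0 members and 0% of all genes passed, with a lowest adjusted p of 0.73, and 11 members had an unadjusted p under 0.05 and were lower (2.78% of all genes).

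The 3 pairs differed in size. At E10.5 the median rostral minus caudal difference of the set was -0.72, with 42 genes lower, in a pair that lay in different slide rows. At E9.5 it was -0.38 in Hoxb7-GFP cells, with 44 lower, and -0.22 in Wt1-GFP cells, with 41 lower, each pair within 1 slide row. Without the E10.5 pair the fitted median was -0.33 with 42 lower. In the fit over the 3 pairs, heart markers were higher rostrally in 5 of 5 cases (median 2.55). Erythroid markers were so in 5 of 5 (1.31) and neural markers in 6 of 6 (1.26). The part of these markers in the difference was not tested. The pairs disagreed for erythroid and neural markers. The summed erythroid signal was 6.81 rostrally against 0.657 caudally at E10.5, 15 against 35.3 in E9.5 duct cells and 9.99 against 6.49 in Wt1-GFP cells. The summed neural signal was 43.3 against 53.8, 172 against 47.9 and 41.5 against 29.4 in the same pairs. Whether the rostral to caudal difference differed between Hoxb7-GFP and Wt1-GFP cells was tested as an interaction in limma, which called 0 of 29358 genes (lowest adjusted p 0.81, 1717 genes at an unadjusted p under 0.05), with 0 members at an unadjusted p under 0.05. That fit left 1 residual degree of freedom, so it could not show that the difference was alike in both. The median interaction of the set, Hoxb7-GFP minus Wt1-GFP, was -0.28.

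**Figure D5:**
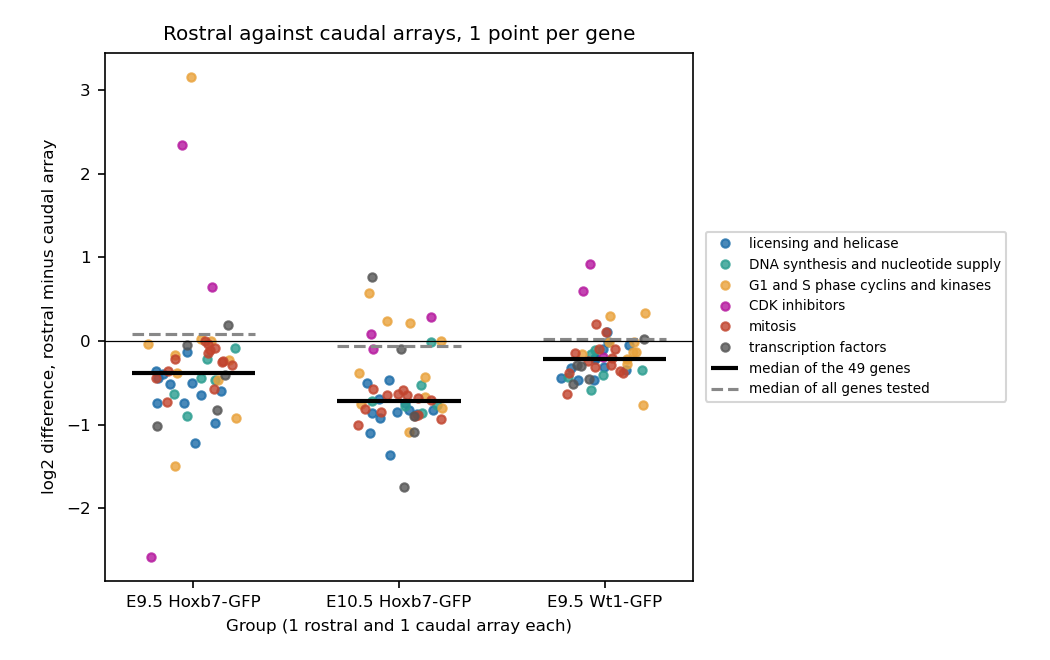
Rostral minus caudal log2 difference of each of the 49 genes in the 3 groups with a rostral and a caudal array, with the median of the set (black bar) and of all genes tested (dashed grey). The medians of the set are -0.38, -0.72 and -0.22 from left to right, each below that of all genes.

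Mycn was lower on the rostral array in each pair, with 4.54 against 5.56 at E9.5, 3.57 against 5.32 at E10.5 and 6.36 against 6.66 in Wt1-GFP cells (difference -1.02, SE 0.35, limma adjusted p = 0.727). Cdc6 had 1.51 against 2.49, 0.63 against 1.99 and 2.53 against 2.99 in the same pairs (difference -0.93, SE 0.25). Orc1 had -0.31 against 0.91, -0.73 against 0.36 and 0.60 against 1.07 (difference -0.93, SE 0.24). For these 3 genes the rostral array was the lower in every pair, and so it was for Ccne1 (-0.74, SE 0.25) and E2f2 (-0.67, SE 0.21).

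All 6 helicase subunits were lower rostrally in all 3 pairs, by -0.57 (Mcm6), -0.56 (Mcm3), -0.51 (Mcm5), -0.39 (Mcm4), -0.39 (Mcm7) and -0.38 (Mcm2), though the Mcm5 and Mcm6 differences in Wt1-GFP cells were -0.01 and -0.05. Myc differed by -0.05 (SE 0.34), Ccnd2 by -0.31 (SE 0.23) and Cdkn1a by -0.89 (SE 0.64), the last mainly from the E9.5 duct pair, with -2.66 against -0.08. On the other side were Cdk6 (1.13, SE 0.77) and Cdkn2c (1.08, SE 0.50), both below or near background on several arrays, and Cdkn1b (0.49, SE 0.27), Ccnd1 (0.19, SE 0.22) and Ccnd3 (0.16, SE 0.18). Of the further pathway genes, 33 of 36 replication genes and 30 of 32 mitosis genes were lower rostrally, with medians of -0.45 and -0.38.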

How the data were processed

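Sorted mouse cells were measured on 8 one-colour Agilent arrays of 1 slide, 1 array per sample. Per the labels' protocols, Cy3 targets were made from 10 ng of RNA with a NuGEN Pico amplification kit. Per the file headers, the deposited intensity values are processed signals of Agilent Feature Extraction 10.7.3.1 after background subtraction, with a flag per spot for outliers and for signal well above background. The deposited log2 matrix follows the median-centred log2 scanner values (r = 0.9998) and was used as an alternative.

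Control and outlier spots were left out (62976 spots, 55663 probes kept), repeated spots averaged, and the 75th percentile of the array subtracted on the log2 scale. Probes well above background on at least 1 array were kept, and the brightest represented its gene name. In limma 3.58.1 (R 4.3.3) all 8 arrays were fitted with 5 group terms and a position term, leaving 2 residual degrees of freedom, and p-values were adjusted by Benjamini-Hochberg over 29358 genes. Groups of 1 array were assumed to vary like the rest, and the number of arrays limits the precision. A bound ("at least N-fold") replaces a fold where a probe was not well above background on arrays of the dimmer group, and uses the dimmest well-above level of the array. The fit was tested on simulated data. Full values were given for up to 5 members each way per comparison, for Mcm2 to Mcm7, the D-type cyclins, the CDK inhibitors, Myc and Mycn, and for the 3 pathway genes with the largest differences each way in the reporter comparison and the slope, and the rest by counts. Other named genes were chosen after their values were seen. The members, lists and tests were chosen with earlier results of these data known, and no p-value is given for the set. Alternatives covered background correction, scaling, filters, probe choice, the prior variance, the position term, the slide row and each array left out, and cyclic loess was added after seeing the data.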

Additional observations from a re-analysis of the deposited data

How the results depend on the processing

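The direction of the median of the 49 genes was kept in all 6 comparisons under every alternative run. Median scaling moved the median of all genes by -0.12 in the reporter comparison and by -0.20 from E8.75 to E9.5, and the set lay 0.50 and 0.52 below the median of all genes there. The number of genes passing in limma moved with the prior and the background correction. With the brightness-dependent prior, the normexp correction and no position term, it was 637, 190 and 8 in the reporter comparison, 375, 158 and 16 for E9.5 minus E8.75, and 649, 949 and 128 for the slope, against 0. With that prior, 2, 3 and 2 members passed in these comparisons and 1 gene passed the interaction. Blocking on the slide row gave a reporter median of -0.242 and a slope median of -0.398. Leaving out 1 array at a time gave medians of -0.705 to -0.389 (reporter), -0.584 to -0.529 (E9.5 minus E8.75), -0.543 to -0.104 (E10.5 minus E9.5), 0.277 to 0.638 (E11.5 minus E10.5), -0.45 to -0.029 (slope) and -0.567 to -0.325 (rostral minus caudal), with 0 genes passing each time. Some single genes turned sign, and not only where the main value was within its error. The main slopes of Ccnd1 (0.54, SE 0.12) and Cdkn1b (0.22, SE 0.15) lay beyond their errors. Tyms (reporter) was -0.0627 with median scaling, -0.257 with the row block and -0.0992 to 0.213 with 1 array left out. Bub1b (E9.5 minus E8.75) was -0.157 with median scaling and -0.114 to 0.212 with 1 array left out. Cdkn1b (E10.5 minus E9.5) was -0.163 with the row block, -0.0775 as the mean of its probes and -0.163 to 0.715 with 1 array left out, and its slope was -0.132 with the row block. Cdkn1a (E11.5 minus E10.5) was 0.281 with the row block, 0.0112 as the mean of its probes and -1.20 to 0.281 with 1 array left out. With 1 array left out, the slope of Ccnd1 was -0.0140 to 0.755, that of Cenpf was -0.676 to 0.161, and the rostral minus caudal difference of Ccnd1 was -0.00758 to 0.287, the lowest also found with the row block. The cause of these shifts was not tested. Arrays could not be paired by replicate, because the labels carry no replicate numbers to block on. Rostral and caudal arrays were compared within each split group. Rostral and caudal parts, which the labels name, entered every comparison through the position term.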
